A study of Mus musculus with 15 samples.

Results

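Interferon-stimulated effector genes encode the proteins by which a cell that has received an interferon signal limits a pathogen. A list of 9 such genes was taken: Irgm1, Gbp5, Mx1, Ifit2, Ifi204, Bst2, Ifi35, Ifitm1 and Pml. They were chosen for their known function, but with earlier results of these data known. The counts of genes that pass below are thus not independent of the data. Of the 561 genes on the nanoString immunology panel, 8 were on this list. Gbp5 was not analysed here. The remaining genes were followed in RAW 264.7, an established mouse macrophage line, and 7 of the 8 had enough counts to be tested.

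All 15 macrophage samples received lipopolysaccharide (LPS), a bacterial wall component, together with extracellular vesicles (EVs) for 24 hours. The EVs came from the plasma of female C57BL/6J mice, either sham-treated or exposed to whole-body ionizing radiation (WBIR). The 5 groups of 3 samples were sham EVs, EVs taken 3 or 7 days after 2 Gy, a dose that mice survive, and EVs taken 3 or 7 days after 9 Gy, a lethal dose. No group without LPS or without EVs was analysed here, so each change is relative to macrophages with LPS and sham EVs. The study's methods mention triplicate runs, but not whether the 3 samples of a group were repeat runs, separate cultures or from separate mice, so the p-values may measure technical spread only. Replicates 1 and 2 of the samples titled 9 Gy day 3 carry a conflicting day label of 7 and were placed by title.

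Bacterial LPS is sensed by Toll-like receptor 4, which drives the cell to make interferon-β. The secreted interferon binds a receptor on the same and neighboring cells, and receptor-bound kinases then activate transcription factors that bind interferon-stimulated response elements in front of their target genes. Interferon-γ acts mainly through a different element, the gamma-activated site. In macrophages most of the 9 genes respond to either interferon, and many are also induced by LPS.

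Promoters are shown for Irgm1 and Bst2, the pair with a response element core among the measured genes searched. These genes were chosen because they changed in opposite directions. The 250 bases before the start are given 5′ to 3′ on the coding strand from RefSeq (GRCm38.p6). Capitals mark overlapping matches to the core, GAAANNGAAA in which N is any base, searched on both strands.
Irgm1, minus strand, chr11:48871421-48871670: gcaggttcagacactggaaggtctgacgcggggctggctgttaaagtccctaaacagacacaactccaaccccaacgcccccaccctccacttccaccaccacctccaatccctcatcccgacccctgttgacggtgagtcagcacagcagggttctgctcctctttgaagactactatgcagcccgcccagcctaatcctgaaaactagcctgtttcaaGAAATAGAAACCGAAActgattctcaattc
Bst2, minus strand, chr8:71537473-71537722: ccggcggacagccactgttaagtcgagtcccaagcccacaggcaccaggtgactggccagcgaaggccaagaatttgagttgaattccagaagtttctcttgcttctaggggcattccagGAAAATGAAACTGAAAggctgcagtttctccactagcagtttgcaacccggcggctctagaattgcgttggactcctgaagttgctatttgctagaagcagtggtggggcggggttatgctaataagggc
The matches lay from -30 to -15 relative to the start in Irgm1 and from -130 to -115 in Bst2. Windows from 250 bases before to 50 bases after a start were given for 7 of the 9 genes, and none for Ifi204 or Mx1. The core was in the windows of 3 of these 7 genes, Gbp5 included, and in 3.44% of 32851 windows of all genes. The gamma-activated site core, TTCNNNGAA, which reads the same on both strands, was in 8.30% of all windows. It was found in Bst2 from -136 to -128, overlapping the response element core, and also in Ifi35, Ifit2 and Gbp5. A match is a string of letters and not a measured binding site.

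Total counts were 43176 to 87899 in the 9 Gy day 3 samples and 453178 to 837995 in all others, so low genes in the former carry a large counting error. Counts were therefore scaled to the geometric mean of the 14 housekeeping genes on the panel, and all levels below are these scaled counts. With this scaling the median log2 fold change (log2FC) of all 269 genes tested was -0.46 at day 3 and -0.45 at day 7 for 9 Gy EVs against sham EVs. The housekeeping genes themselves differed, with 9 of 13 tested past the threshold at day 3 and 8 at day 7, from -0.87 to 1.63. Scaling to total counts moved the median of all genes to 0.56 and 0.65, and scaling by trimmed mean of M-values (TMM) to 0.01 and 0.03. Every change below is thus relative to a chosen reference. Of 9 macrophage genes, 8 had at least 13 raw counts in every sample, and Fcgr3 had 2 to 5 in the 9 Gy day 3 group. Their summed level was 7569 to 9234 with 9 Gy EVs against 12362 to 17240 with sham EVs. At both days 6 of the 9 passed as lower and 1 as higher, Csf1r, the receptor of a macrophage growth factor, with a log2FC of 2.29 and 1.87. The 19 T, B and NK cell genes summed to 167 to 269 with 9 Gy EVs against 294 to 372 in the other groups. Of these, Cd8a had 74 to 175 raw counts and Cd3e 5 to 15 outside the 9 Gy day 3 group. The part of these shifts in the results was not tested. The study's methods give a set amount of RNA for hybridization, and the levels are relative to housekeeping genes. They measure neither the number of living cells nor the mRNA per cell.

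The first comparison asked whether EVs from mice given 9 Gy changed these genes in LPS-treated macrophages relative to sham EVs. The response was split. Irgm1, an immunity-related GTPase, Mx1, an antiviral GTPase, and Ifi204, a sensor of DNA, rose by 1.42-fold to 2.48-fold in the comparisons that passed the test. Bst2, or tetherin, which holds budding virus at the cell surface, and Ifi35, an interferon-induced leucine zipper protein, fell by 2.28-fold to 2.92-fold. By edgeR's quasi-likelihood test with adjusted p under 0.05, 4 of 7 genes passed at day 3, 2 higher and 2 lower. Of all genes tested 52.4% passed at day 3, 11.2% higher and 41.3% lower. At day 7, 5 of 7 passed, 3 higher and 2 lower, against 61.0% of all genes, 11.9% higher and 49.1% lower. The share past the threshold, both directions together, was thus near that of the panel at both days. The median log2FC of the 7 genes was 0.54 at day 3 and 0.51 at day 7. With TMM scaling all 7 genes passed at either day, 5 higher and 2 lower. Of all genes 44.2% then passed at day 3, 21.9% higher and 22.3% lower, and 56.1% at day 7, 27.9% higher and 28.3% lower. Total counts turned the split of all genes to 121 higher and 33 lower at day 3 and 143 higher and 31 lower at day 7.

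**Figure D1:**
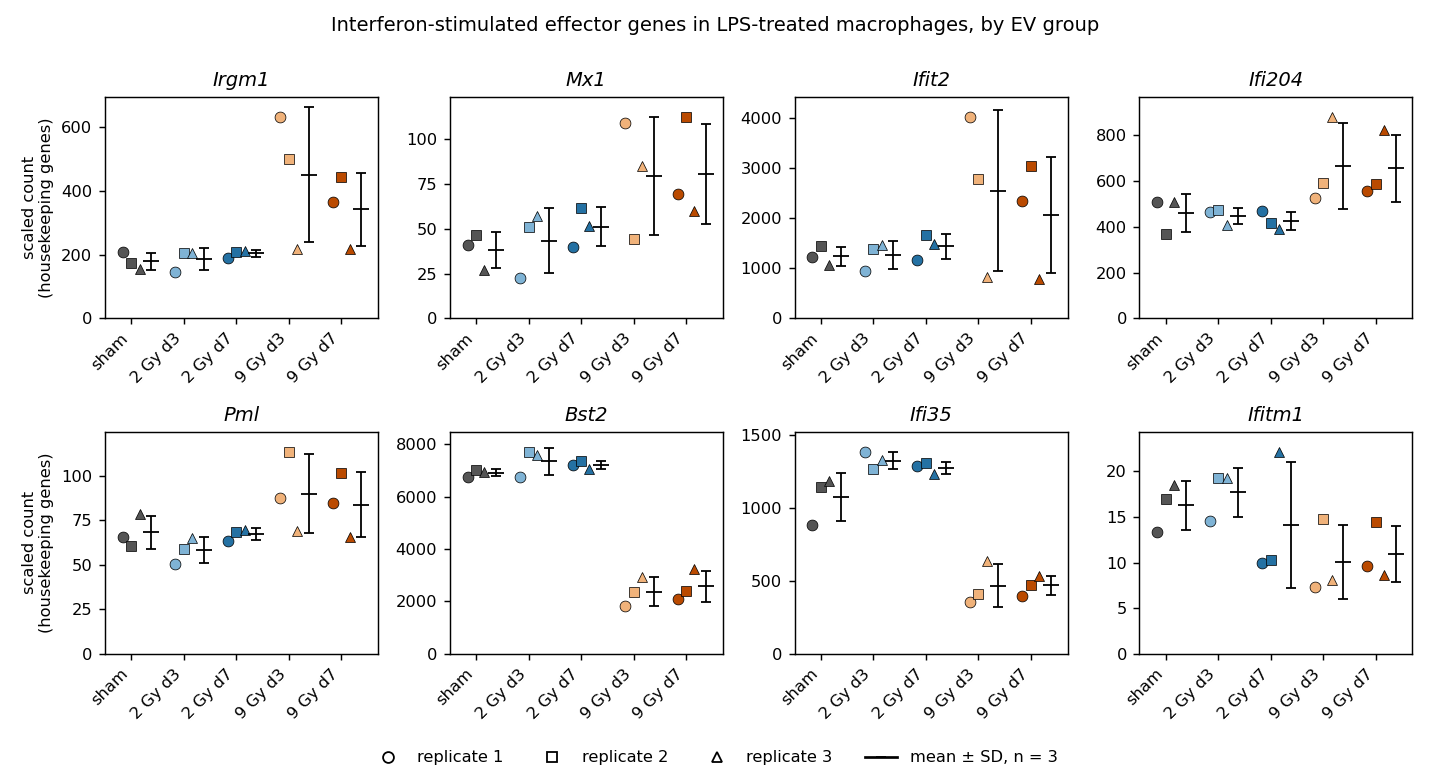
Scaled counts (y axis, from 0) of the 8 measured genes in each of the 15 samples, by EV group (x axis), with the mean and SD of 3 samples beside the points and the marker shape giving the replicate number. Bst2 and Ifi35 lay lower in all 6 samples with 9 Gy EVs than in any other sample. Ifit2 and Irgm1 were lower in replicate 3 of both 9 Gy groups than in replicates 1 and 2.

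Among the GTPases, Irgm1 (chr11:48865245-48871420, GRCm38.p6) is an interferon-γ-inducible protein needed by mice to control intracellular bacteria and to keep autophagy in order. With sham EVs its scaled counts were 208, 173 and 156 in replicates 1 to 3. With 9 Gy EVs they were 633, 502 and 219 at day 3 and 367, 443 and 219 at day 7. All samples with 9 Gy EVs were above all samples with sham EVs, but replicate 3 of both groups was close to the highest sham sample. The log2FC was 1.31 (SE 0.33, edgeR adjusted p = 0.00515) at day 3 and 0.94 (SE 0.31, edgeR adjusted p = 0.0184) at day 7. Leaving out the samples with a conflicting day label left replicate 3 alone at day 3, with a log2FC of 0.29 (edgeR adjusted p = 0.581). In that fit the lone sample is assumed to vary like the other groups. The day 7 call was lost without replicate 1 of that group, at 0.89 (edgeR adjusted p = 0.0505), without its replicate 2, at 0.71 (0.0871), or without sham replicate 3, at 0.85 (0.0659).

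Mx1 (chr16:97447035-97462906) restricts influenza and related viruses in the nucleus, although many inbred laboratory strains carry a defective copy of the gene. Its scaled counts were 41.0, 46.3 and 26.8 with sham EVs. With 9 Gy EVs they were 109, 44.3 and 85.2 at day 3 and 69.4, 113 and 60.1 at day 7. Replicate 2 at day 3 lay among the sham samples, and all day 7 samples lay above them. The day 3 values rested on 15, 9 and 21 raw counts, and 9 counts have a 95% Poisson interval of 4.12 to 17.1, which covers counting error only. The log2FC was 1.03 at day 3 (SE 0.44, edgeR adjusted p = 0.0622) and 1.08 at day 7 (SE 0.35, edgeR adjusted p = 0.0152). At day 7 the call was lost without replicate 2 of that group, at 0.77 (edgeR adjusted p = 0.0817), or without sham replicate 3, at 0.88 (0.0695).

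Ifit2 (chr19:34550550-34576534), which binds RNA and curbs translation in infected cells, had the widest spread of the 7 tested genes with 9 Gy EVs. Scaled counts were 1222, 1445 and 1069 with sham EVs. The 9 Gy day 3 samples had 4033, 2783 and 835, and the 9 Gy day 7 samples 2351, 3047 and 779. In both groups replicates 1 and 2 were above, and replicate 3 below, every sham sample. The mean of replicates 1 and 2 was 4.08 times replicate 3 at day 3 and 3.46 times at day 7. The log2FC was 1.03 (SE 0.49, edgeR adjusted p = 0.0946) at day 3 and 0.73 (SE 0.48, edgeR adjusted p = 0.211) at day 7, neither past the threshold. Without replicate 3 of the 9 Gy group it was 1.45 (edgeR adjusted p = 0.0107) at day 3 and 1.12 (edgeR adjusted p = 0.0352) at day 7. With replicate 3 alone at day 3 it turned to -0.58 (edgeR adjusted p = 0.481). It also passed with TMM scaling, at 1.49 (edgeR adjusted p = 0.0236) and 1.22 (edgeR adjusted p = 0.0452).

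Ifi204 (chr1:173747293-173767069) belongs to the family of interferon-inducible DNA sensors, whose members lie side by side on mouse chromosome 1 and are close in sequence, so its probe may not tell all of them apart. Scaled counts were 508, 366 and 506 with sham EVs. The 9 Gy day 3 samples had 524, 590.0 and 880.0, and the 9 Gy day 7 samples 557, 586 and 820.3. Here replicate 3 was the highest of each 9 Gy group, the reverse of Ifit2 and Irgm1. The log2FC was 0.54 (SE 0.21, edgeR adjusted p = 0.0449) at day 3 and 0.51 (SE 0.20, edgeR adjusted p = 0.0444) at day 7. Both lay close to the threshold. Without replicate 3 of the 9 Gy group the log2FC was 0.28 (edgeR adjusted p = 0.266) at day 3 and 0.31 (edgeR adjusted p = 0.191) at day 7. Leaving out any of the sham samples, testing without the filter on low counts or fitting the compared groups alone also ended both calls, as did subtraction of the mean count of the T, B and NK cell genes, with edgeR adjusted p from 0.0538 to 0.221. The log2FC was 0.37 to 0.62 without a sham sample, 0.54 and 0.51 without the filter or in the compared groups alone, and 0.32 and 0.43 after the subtraction. With replicate 3 alone at day 3 it was 0.94 (edgeR adjusted p = 0.0153).

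Pml (chr9:58217179-58249796) organizes nuclear bodies that take part in antiviral defense and in cell death. Its scaled counts were 65.4, 60.4 and 78.6 with sham EVs. The 9 Gy day 3 samples had 87.3, 113 and 68.9, and the 9 Gy day 7 samples 84.5, 101 and 65.3. Replicates 1 and 2 with 9 Gy EVs were above all sham samples and replicate 3 was not. The log2FC of 0.39 (SE 0.23, edgeR adjusted p = 0.173) at day 3 and 0.29 (SE 0.19, edgeR adjusted p = 0.199) at day 7 did not pass. With TMM scaling both passed, at 0.86 (edgeR adjusted p = 0.00897) and 0.78 (edgeR adjusted p = 0.00354), as they did when scaled to total counts or to the median gene.

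Bst2 (chr8:71534255-71537472), the gene of tetherin, showed the largest fall of the 7 genes. Its scaled counts were 6752, 7023 and 6952 with sham EVs. In the 9 Gy samples they were 1819.8, 2360.1 and 2912 at day 3 and 2086, 2396 and 3223 at day 7. The highest 9 Gy sample was thus far below the lowest sham sample. The log2FC was -1.54 (SE 0.18, edgeR adjusted p = 9.2e-06) at day 3, 2.92-fold lower, and -1.43 (SE 0.18, edgeR adjusted p = 1.4e-05) at day 7, 2.69-fold lower. It was lower and past the threshold under each scaling tried, with the smallest change under total counts at -0.53 and -0.35.

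Ifi35 (chr11:101448412-101458701), which with its partner Nmi forms complexes in the cytoplasm, followed Bst2. Scaled counts were 883, 1144 and 1184 with sham EVs. In the 9 Gy samples they were 357, 408 and 633 at day 3 and 398, 471 and 532 at day 7. The groups did not overlap. The log2FC was -1.19 (SE 0.20, edgeR adjusted p = 2.0e-04) at day 3 and -1.20 (SE 0.19, edgeR adjusted p = 1.1e-04) at day 7. Under scaling to total counts Ifi35 no longer passed, at -0.18 (edgeR adjusted p = 0.374) and -0.10 (edgeR adjusted p = 0.590). With replicate 3 alone at day 3 it was at -0.76 (edgeR adjusted p = 0.0222).

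Ifitm1 (chr7:140967429-140969827), a membrane protein that blocks viral entry, had a mean below 20 counts and was not tested. Raw counts were 12, 18 and 20 with sham EVs. The 9 Gy samples had 1, 3 and 2 at day 3 and 16, 23 and 15 at day 7. The 2 Gy samples had 13, 23 and 21 at day 3 and 11, 12 and 21 at day 7. In the same samples the 19 T, B and NK cell genes, which a macrophage line should lack, averaged 1.79 to 2.42 raw counts in the 9 Gy day 3 group and 13.9 to 22.1 elsewhere. Their median was 1 in the 9 Gy day 3 samples and 6 to 11 elsewhere, since Cd8a and a few others raise the mean. Ifitm1 was thus near the mean of these genes and, outside the 9 Gy day 3 group, above their median.

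**Figure D2:**
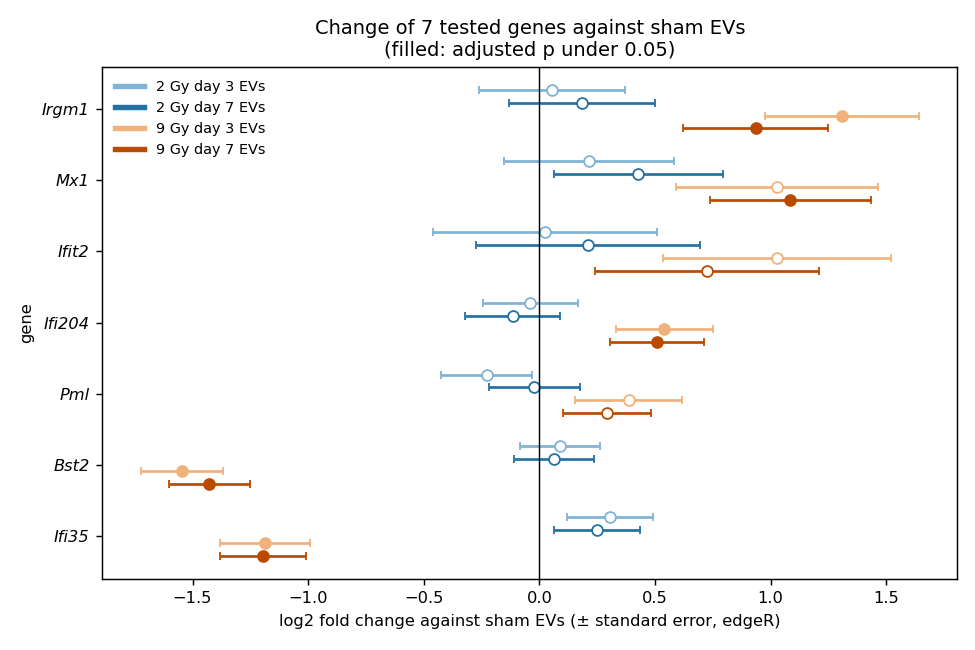
The log2FC (x axis, with the SE from edgeR) of the 7 tested genes (y axis) for each of the 4 irradiated EV groups against sham EVs, filled where the adjusted p was under 0.05. With 9 Gy EVs Irgm1, Mx1, Ifit2, Ifi204 and Pml lay above 0 and Bst2 and Ifi35 below, while all values with 2 Gy EVs lay between -0.23 and 0.43.

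A change of scaling shifts all genes of a comparison by nearly the same amount. That the 7 genes moved together was thus built in and is no sign of stability. With 9 Gy EVs no gene changed sign under any scaling. Irgm1 ranged from 1.31 to 2.36 at day 3 and Bst2 from -1.54 to -0.53.

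**Figure D3:**
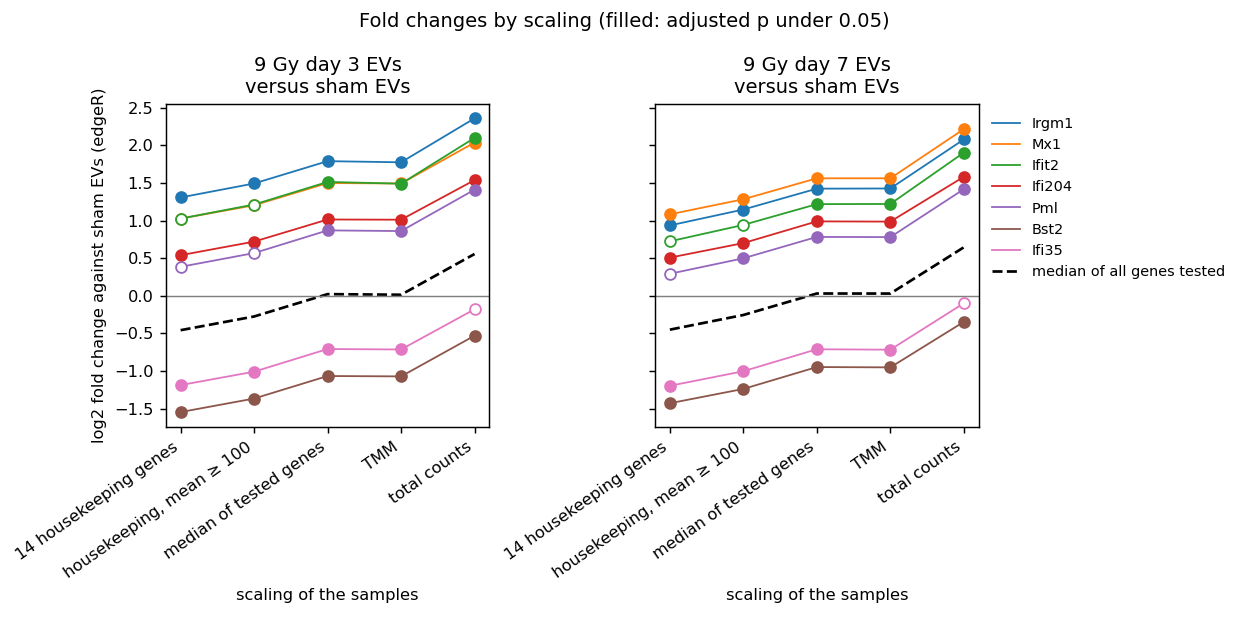
The log2FC (y axis, edgeR) of the 7 tested genes against sham EVs for 9 Gy day 3 EVs (left) and 9 Gy day 7 EVs (right) under 5 scalings of the samples (x axis), filled where the adjusted p was under 0.05. The dashed line is the median of all 269 genes tested, which moved from -0.46 to 0.56 at day 3 and from -0.45 to 0.65 at day 7, while 5 genes stayed above 0 and Bst2 and Ifi35 below it.

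EVs from mice given 2 Gy were compared with sham EVs in the same way. None of the 7 genes passed at day 3 or at day 7, nor did any of the 269 genes tested (0% by edgeR at either day). At an unadjusted p under 0.05, 0 of the 7 genes and 7 of 269 genes passed at day 3, and 0 and 1 at day 7. DESeq2 with the same scaling gave 0 of the 7 genes at both days, and 1 and 0 of all genes. The log2FC of the 7 genes was -0.23 to 0.30 at day 3 and -0.11 to 0.43 at day 7. A p that misses the threshold does not show that 2 Gy EVs left these genes as they were. The 95% intervals at day 3 ran from -0.28 to 0.46 for Bst2 and from -1.01 to 1.06 for Ifit2, so the interval for Ifit2 took in a doubling and a halving.

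Some values with 2 Gy EVs still stood apart. Ifi35 scaled counts were 1379, 1263 and 1324 at day 3 and 1285, 1303 and 1226 at day 7, all above the highest sham sample. Its log2FC was 0.30 (95% interval -0.09 to 0.70, edgeR adjusted p = 0.998) at day 3 and 0.25 (95% interval -0.15 to 0.65, edgeR adjusted p = 0.944) at day 7. Bst2 scaled counts were 6738, 7694 and 7596 at day 3 and 7213, 7371 and 7055 at day 7. For Irgm1 they were 146, 206 and 205 at day 3 and 191, 209 and 212 at day 7, near the sham values. Ifit2 stood at 954, 1386 and 1459.7 at day 3 and 1175, 1658 and 1486 at day 7, without the split by replicate 3 seen with 9 Gy EVs. The scaled counts with 2 Gy EVs were 391 to 472 for Ifi204, 22.5 to 61.7 for Mx1 and 50.6 to 69.5 for Pml, each overlapping the sham range.

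The dose itself was tested by setting both 9 Gy groups against both 2 Gy groups, which does not rest on the shared sham samples. Same-numbered replicates deviated together between the days, with r from 0.350 to 0.730 for 9 Gy EVs and 0.392 to 0.782 for 2 Gy EVs. The fit treats the 6 samples of a dose as independent, so its SE and p-values may be too small. At an adjusted p under 0.05, 6 of 7 genes passed, 4 higher and 2 lower with 9 Gy EVs, against 67.7% of all genes, 15.6% higher and 52.0% lower. The split of all genes was 42 higher and 140 lower, and it turned to 90 and 80 under TMM and to 168 and 36 under total counts. Bst2 was 2.95-fold lower with 9 Gy EVs (log2FC -1.56, SE 0.13, edgeR adjusted p = 1.0e-07). Ifi35 was 2.77-fold lower (log2FC -1.47, SE 0.14, edgeR adjusted p = 4.3e-07). Irgm1 was 2.00-fold higher (log2FC 1.00, SE 0.23, edgeR adjusted p = 0.00151) and Ifi204 1.52-fold higher (log2FC 0.60, SE 0.15, edgeR adjusted p = 0.00254). In these 4 genes all 6 samples with 9 Gy EVs lay on the same side of all 6 samples with 2 Gy EVs. Mx1 at 0.73 (SE 0.27, edgeR adjusted p = 0.0279) and Pml at 0.47 (SE 0.15, edgeR adjusted p = 0.0144) also passed, although their samples overlapped. Mx1 lost its call without replicate 1 or 3 of the 9 Gy day 3 group, replicate 2 of the 9 Gy day 7 group or replicate 1 of the 2 Gy day 7 group, at 0.58 to 0.69 (edgeR adjusted p from 0.0592 to 0.0835). Pml lost it without replicate 2 of the 9 Gy day 3 group, at 0.35 (edgeR adjusted p = 0.0678). With the samples of conflicting day label left out, Irgm1 was at 0.49 (edgeR adjusted p = 0.0704), Mx1 at 0.80 (0.0607) and Pml at 0.28 (0.236), and none of them passed. With those samples counted as day 7, Mx1 at 0.79 (edgeR adjusted p = 0.0586) and Pml at 0.31 (0.217) did not pass. Ifit2 did not pass, at 0.76 (SE 0.34, edgeR adjusted p = 0.0647). It passed under every other scaling tried, from 0.97 (edgeR adjusted p = 0.0274) with the more abundant housekeeping genes to 1.96 (edgeR adjusted p = 3.4e-04) with total counts, and without replicate 3 of either 9 Gy group, at 0.97 (edgeR adjusted p = 0.00699) and 0.95 (edgeR adjusted p = 0.0102). The day 7 samples hold no conflicting label. Their total counts were 453178 to 617963 with 9 Gy EVs and 670882 to 819074 with 2 Gy EVs. Their housekeeping geometric means went the other way, at 801 to 872 and 479 to 588. With the day 7 samples alone, 3 of 7 genes passed, 1 higher and 2 lower, against 56.5% of all genes, 9.67% higher and 46.8% lower. These were Bst2 at -1.49 (edgeR adjusted p = 1.0e-05), Ifi35 at -1.44 (edgeR adjusted p = 2.1e-05) and Ifi204 at 0.62 (edgeR adjusted p = 0.0191). Irgm1 at 0.75 (edgeR adjusted p = 0.0531), Mx1 at 0.66 (0.111), Ifit2 at 0.52 (0.375) and Pml at 0.32 (0.173) did not pass.

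The time after exposure was tested within each dose. Of the 7 genes, 0 passed between day 7 and day 3 with 9 Gy EVs or with 2 Gy EVs, and of all genes 0% passed in either by edgeR. With the replicate number as a block in a fit of the compared groups alone, 10.0% of all genes (27 of 269) passed with 2 Gy EVs and 0% with 9 Gy EVs, and 0 of the 7 genes in either. Unadjusted, 0 of the 7 genes passed in either comparison, against 6 and 4 of all genes. DESeq2 with the same scaling also gave 0 of the 7 genes. With 9 Gy EVs the day 7 minus day 3 log2FC ran from -0.37 for Irgm1 (95% interval -1.07 to 0.32) to 0.12 for Bst2 (95% interval -0.26 to 0.49). With 2 Gy EVs it ran from -0.07 for Ifi204 to 0.21 for Mx1. The dose by day interaction was past the threshold for 0 of the 7 genes and 0% of all genes by edgeR, with 0 and 4 unadjusted, and for 0 of the 7 by DESeq2. For Ifit2 and Irgm1 the interaction was -0.49 (95% interval -1.96 to 0.99) and -0.50 (95% interval -1.47 to 0.47), both wide.

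By mean scaled count the order of the 5 groups was the same for Bst2 and Ifi35. The Bst2 mean was 7343 ± 526 (SD, n = 3) for 2 Gy day 3, 7213 ± 158 for 2 Gy day 7, 6909 ± 141 for sham, 2569 ± 588 for 9 Gy day 7 and 2364 ± 546 for 9 Gy day 3. Of these neighbors, only the sham and 9 Gy day 7 groups differed past the threshold. For Irgm1 the 9 Gy groups were at the top, with 451 ± 212 (SD, n = 3) for 9 Gy day 3, 343 ± 114 for 9 Gy day 7, 204 ± 11.5 for 2 Gy day 7, 186 ± 34.3 for 2 Gy day 3 and 179 ± 26.7 for sham. The 3 lowest groups overlapped each other.

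Other genes of the interferon pathway were described from 4 lists with 51 genes, of which 38 were on the panel and 29 had enough counts. With 9 Gy EVs, 5 of 29 passed as higher and 14 as lower at day 3, and 5 as higher and 16 as lower at day 7. Of all genes 11.2% passed as higher and 41.3% as lower at day 3, and 11.9% and 49.1% at day 7, so the shares of the pathway lay near those of the panel. The counts of the shorter lists below are to be read against the same shares. The median log2FC over the 29 genes was -0.64 and -0.60, against -0.46 and -0.45 for all genes. With 2 Gy EVs 0 of 29 passed at either day by edgeR, and 1 and 0 did so unadjusted.

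Of the interferons and their receptors, 5 genes were tested, with 1 higher and 3 lower at both days. Ifnb1, which encodes interferon-β, had scaled counts of 18.9, 37.8 and 9.25 with sham EVs. In the 9 Gy samples they were 669.7, 477 and 150.0 at day 3 and 436, 447 and 145 at day 7, all above every sham sample. The log2FC was 4.25 (SE 0.68, edgeR adjusted p = 1.6e-04) at day 3 and 3.95 (SE 0.65, edgeR adjusted p = 1.7e-04) at day 7. The sham values rested on 17, 40 and 10 raw counts, against a mean of 13.9, 19.4 and 18.1 raw counts for the T, B and NK cell genes in the same samples, so the size of the fold is uncertain. With replicate 3 alone at day 3 it was 2.76 (edgeR adjusted p = 0.0298). The interferon-γ receptor chain Ifngr2 fell at both days, with a log2FC of -1.44 (SE 0.24, edgeR adjusted p = 2.0e-04) and -1.61 (SE 0.21, edgeR adjusted p = 2.8e-05).

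Of the kinases and transcription factors, 9 were tested, with 1 higher and 4 lower at day 3 and 1 higher and 5 lower at day 7. Irf7, a factor that amplifies interferon production, fell from 5160.3, 4396 and 4999 with sham EVs to 575, 821 and 1265 at day 3 and 737, 801 and 1298 at day 7. Its log2FC was -2.44 (SE 0.26, edgeR adjusted p = 4.6e-06) and -2.36 (SE 0.25, edgeR adjusted p = 4.6e-06). Stat2, a transcription factor of the interferon response, was at -0.53 (SE 0.39, edgeR adjusted p = 0.264) and -0.20 (SE 0.32, edgeR adjusted p = 0.597), and at 0.92 (edgeR adjusted p = 0.0338) at day 7 under total counts. At day 3 it passed as lower without replicate 1 of that group, at -1.04 (edgeR adjusted p = 0.0471), and with replicate 3 alone, at -2.06 (edgeR adjusted p = 0.0068). Interferon-β mRNA was thus higher while mRNA of Irf7 was lower in the same samples.

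Among the 5 tested genes of nucleic acid sensing, sensors and kinases together, 1 rose at each day. At day 3, 0 fell, and at day 7, 1 fell, which was a kinase. The riser was Ifih1, the receptor MDA5 for long double-stranded RNA, at 2.28 (SE 0.29, edgeR adjusted p = 2.2e-05) and 2.16 (SE 0.29, edgeR adjusted p = 2.8e-05). Of 10 other interferon-inducible genes, 2 rose and 7 fell at both days. Cxcl10, a chemokine that attracts T cells, rose from 1696, 2367 and 1639 with sham EVs to 13808, 10635 and 4099.8 at day 3 and 9838, 10573 and 3724 at day 7. Its log2FC was 2.32 (SE 0.41, edgeR adjusted p = 3.6e-04) and 2.08 (SE 0.41, edgeR adjusted p = 6.0e-04). With replicate 3 alone at day 3 it was 1.11 and did not pass (edgeR adjusted p = 0.0672). Ccl5, another T cell chemokine, fell by 2.29 (SE 0.14, edgeR adjusted p = 2.8e-08) at day 3 and fell by 2.07 (SE 0.14, edgeR adjusted p = 5.0e-08) at day 7 on the log2 scale. Psmb9, a subunit of the immunoproteasome, fell by 1.83 (SE 0.21, edgeR adjusted p = 9.6e-06) at day 3 and fell by 1.31 (SE 0.17, edgeR adjusted p = 2.8e-05) at day 7.

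Replicate 3 of both 9 Gy groups stood apart in several of these genes. Relative to the mean of replicates 1 and 2, it was at 0.245 and 0.289 for Ifit2 at days 3 and 7 and at 0.386 and 0.540 for Irgm1. For Pml it was at 0.688 and 0.703, for Ifnb1 at 0.262 and 0.328, and for Cxcl10 at 0.336 and 0.365. In the opposite direction it was at 1.58 and 1.44 for Ifi204, at 1.65 and 1.23 for Ifi35, at 1.39 and 1.44 for Bst2 and at 1.81 and 1.69 for Irf7. Mx1 went opposite ways, at 1.11 at day 3 and 0.661 at day 7, and Stat2 was at 0.240 and 0.720. Il1b, the gene of interleukin-1β and on none of the interferon lists, was named after its values were seen and had ratios of 7.69 and 7.06. With replicate 3 of both groups left out, chosen after seeing these values, Ifit2 passed at 1.45 (edgeR adjusted p = 1.4e-04) and 1.12 (edgeR adjusted p = 7.8e-04). Pml passed at day 7, at 0.44 (edgeR adjusted p = 0.0408). Ifi204 then no longer passed, at 0.28 (edgeR adjusted p = 0.179) and 0.31 (edgeR adjusted p = 0.101). Judged against counting error over all tested genes, replicate 1 of both 2 Gy groups and replicate 2 of the sham group also stood apart. What replicate 3 of the 9 Gy groups shares is not stated in the labels, and its part in the results was not tested beyond these values.

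**Figure D4:**
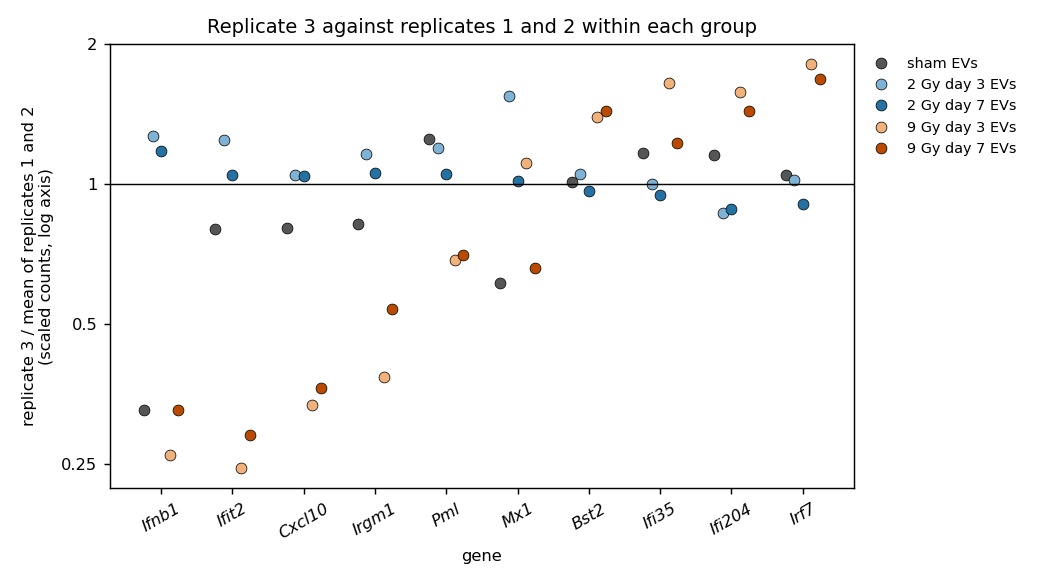
Scaled count of replicate 3 divided by the mean of replicates 1 and 2 (y axis, log scale) for 10 genes (x axis) in each EV group. In both 9 Gy groups the ratio was below 1 for Ifnb1, Ifit2, Cxcl10, Irgm1 and Pml and above 1 for Bst2, Ifi35, Ifi204 and Irf7, while Mx1 was at 1.11 at day 3 and 0.661 at day 7. In the sham group Ifnb1 was also at 0.327.

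The panel gene nearest to each effector gene was found by the root mean square difference of the 4 log2FC values against sham EVs, over 15 samples that include the shared sham samples. For Irgm1 it was Il15ra (0.10) and for Mx1 it was Irf1 (0.13). Irf1 itself did not pass with 9 Gy EVs (edgeR adjusted p = 0.295 at day 3 and 0.183 at day 7). The second nearest to both was Ppia (0.15 and 0.16), a housekeeping gene used for the scaling. Its log2FC was 1.02 at day 3 and 1.00 at day 7 with 9 Gy EVs. Ifit2 lay nearest to Itga4 (0.08), Ifi204 to Tgfbr2 (0.08) and Pml to Prkcd (0.08). Among the falling genes Bst2 lay nearest to Ccl9 (0.08) and Ifi35 to Psmb10 (0.13), another immunoproteasome subunit.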

How the data were processed

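The authors deposited raw nCounter counts of 561 mRNAs in 15 samples; total counts are given above, and no control probes were used here. The methods name nSolver v4.0 without its settings. Counts were scaled to 14 housekeeping genes. All 5 groups entered a single edgeR (4.0.16, R 4.3.3) quasi-likelihood fit of the 269 genes whose mean count was 20 or more, with Benjamini-Hochberg adjustment over all of them. The SE is the absolute log2FC over the square root of F. DESeq2 1.42.0 and other scalings, filters and sample sets served as alternatives. The procedure was tested on simulated data, with results that are not reported here, so no error rate is given. Exact permutation of 3 against 3 samples cannot give p below 0.1 and was not used. The 9 genes and all lists were chosen with earlier results of these data known. Pathway genes named are Ifnb1, Stat2, Irf7 and the 3 largest rises and falls with 9 Gy EVs at each day; some further values are not reported here. Symbols were matched to RefSeq (545 current, 14 older, 2 unmatched). Same-numbered replicates deviated together between the 2 Gy groups (r from 0.392 to 0.782) and between the 9 Gy groups (0.350 to 0.730), where different numbers also reached 0.615 and 0.439. In every other pair of groups at least 1 same-numbered correlation was negative.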

Additional observations from a re-analysis of the deposited data

How the results depend on the processing

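Of the alternative counts of effector genes past the threshold, 175 stayed within 1.5 times the reported count, 3 were higher and 4 lower. The 175 include counts of 0 set against 0, from the comparisons of 2 Gy EVs with sham EVs, of days and the interaction. The tally is therefore no measure of stability for the comparisons with calls. For 9 Gy day 3 EVs against sham EVs the count of 4 became 7 under scaling to the median, under TMM and with DESeq2's own size factors. Leaving out 1 sample gave 3 to 4. For 9 Gy day 7 EVs the count of 5 became 7 in the same 3 settings and 4 to 6 in the other settings; leaving out 1 sample gave 2 to 5, with 2 (Bst2 and Ifi35) without sham replicate 3 and 3 without replicate 2 of the 9 Gy day 7 group. For 9 Gy against 2 Gy EVs the count of 6 became 3 with the samples of conflicting day label left out and 3 with day 7 samples alone, a comparison chosen after seeing the data; leaving out 1 sample gave 5 to 7. In these settings Bst2 and Ifi35 kept their calls, except Ifi35 under total counts against sham EVs. Under total counts Stat2 at 9 Gy day 7 turned to 0.92.

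With the replicate number as a block the counts were 4, 5 and 6 in these comparisons and 0 in the comparisons of days. The pairing concerns the days of a dose and so also the mean of both days. A block shared by the doses may not account for it there. In the block fit of the 2 Gy groups alone, 27 genes passed, 0 of them effector genes. Fitting the compared groups alone, without a block, ended the calls of Ifi204 (edgeR adjusted p = 0.104 and 0.0818) and passed Mx1 at day 3 (0.0494); with the block these were 0.0888, 0.0691 and 0.0411. Of all genes called for 9 Gy day 3 EVs, 141 fell to 78 without the samples of conflicting label, a fit that takes the spread of the lone day 3 sample from the rest. Depth limits Mx1, Pml and Ifitm1 at 9 Gy day 3, with 1 to 23 raw counts.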
